A study of Mus musculus with 14 samples.

Results

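Long noncoding RNAs of the nucleus and the noncoding host transcripts of small RNAs were followed in mouse liver during acute liver failure. Members were taken by gene symbol alone. They were symbols that begin with Snhg and a number, symbols that begin with Mir and end in hg, and Neat1, Malat1, Gas5, H19, Meg3, Dancr, Epb41l4aos, Norad, Dleu2, Pvt1 and Kcnq1ot1. The rule found 43 of the 55357 genes in the files, under 42 different symbols, because Snhg4 is carried by 2 identifiers. By their names and known small RNAs, 21 were grouped as hosts of small nucleolar RNAs (snoRNAs), 15 as hosts of microRNAs, and 7 as other long noncoding RNAs. Of the 43, 37 had at least 1 read and 29 passed the filter on low counts.

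The livers came from male C57BL/6 mice of 5 to 6 weeks that were acclimatised for 1 week. In the model group (8 libraries) mice were given 10 µg/kg of lipopolysaccharide (LPS), the endotoxin of Gram-negative bacteria, and 300 mg/kg of the hepatotoxin D-galactosamine (D-GalN) into the peritoneum, and livers were taken 24 h later. The control group (6 libraries) received saline, and neither agent was given alone. The labels do not say whether each sample was a separate animal, so p-values measure only the spread between these samples. RNA was selected with oligo(dT), so the libraries hold the host transcripts and not the snoRNAs or mature microRNAs cut from them. How fully this selection recovers each long RNA, such as Malat1 and Neat1, was not measured. Counts are per gene and do not tell transcript forms of Neat1 apart.

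Host genes carry small RNAs inside a longer transcript. For most snoRNA hosts the small RNA lies in an intron and is released after splicing, while the spliced host RNA is often short-lived and degraded by nonsense-mediated decay. Many of these hosts start with a run of pyrimidines, as ribosomal protein genes do. MicroRNA hosts are cut in the nucleus by Drosha, and the hairpin is then trimmed by Dicer. Neat1 is the scaffold RNA of paraspeckles, Malat1 is enriched in nuclear speckles, and Kcnq1ot1 is an imprinted antisense RNA that silences neighbouring genes on the paternal chromosome.

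The mature sequences of the microRNAs whose hosts differed between the groups are shown because the seed, bases 2 to 8 in capitals, sets which messenger RNAs a microRNA can pair with. They are written 5′ to 3′ from RefSeq (GRCm38.p6). The first 8 come from hosts with higher levels in the model, the next 4 from hosts with lower levels, and the last from Mir100hg. All 6 hairpins of the Mir17hg cluster lie in 1 transcript.
mmu-miR-155-5p: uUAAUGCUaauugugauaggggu
mmu-miR-17-5p: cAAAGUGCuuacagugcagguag
mmu-miR-20a-5p: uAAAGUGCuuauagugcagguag
mmu-miR-18a-5p: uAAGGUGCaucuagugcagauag
mmu-miR-19a-3p: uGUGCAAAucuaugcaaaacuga
mmu-miR-19b-3p: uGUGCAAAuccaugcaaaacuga
mmu-miR-92a-3p: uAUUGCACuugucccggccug
mmu-miR-670-5p: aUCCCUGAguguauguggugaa
mmu-miR-22-3p: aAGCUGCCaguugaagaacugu
mmu-miR-99a-5p: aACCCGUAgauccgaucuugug
mmu-let-7c-5p: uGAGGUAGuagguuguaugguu
mmu-miR-125b-5p: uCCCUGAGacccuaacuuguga
mmu-miR-100-5p: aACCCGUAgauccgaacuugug
Within the Mir17hg cluster, miR-17 and miR-20a share 1 seed and miR-19a and miR-19b share another. The seed of miR-99a, from Mir99ahg, is also that of miR-100 from Mir100hg. Mir100hg also holds the hairpins Mir125b-1 and Mirlet7a-2, so miR-125b and let-7 hairpins are not limited to Mir99ahg.

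Start regions of 7 snoRNA hosts are shown because many such genes are known to start with a pyrimidine run, as ribosomal protein genes do. Each window holds 10 bases before and 20 bases from the RefSeq start (GRCm38.p6), 5′ to 3′ on the gene's strand. The longest run of C and T anywhere in the window is in capitals where it reaches 5 bases. It need not lie at the start. Snhg16, Snhg17 and Snhg15 were higher in the model, while no difference was called for Gas5, Snhg8, Snhg12 and Snhg1. Another annotated start of Gas5, whose longest run is 3 bases, and another of Snhg17, whose run is 6, are not shown.
Gas5, chr1:161035156-161035185, plus strand: ccatctcagCCTTTCggagctgtgcggcat
Snhg8, chr3:123508317-123508346, minus strand: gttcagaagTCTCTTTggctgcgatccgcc
Snhg12, chr4:132308668-132308697, plus strand: ttctcagTCCTTTCTCgcttcatccgcggt
Snhg1, chr19:8723477-8723506, plus strand: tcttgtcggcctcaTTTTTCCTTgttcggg
Snhg16, chr11:116671650-116671679, plus strand: gcgcaagcgcgatctcgTCCTTTCCgaggt
Snhg17, chr2:158361490-158361519, minus strand: aagaccacagTTTCCTgtcgcgtggatgtg
Snhg15, chr11:6528741-6528770, minus strand: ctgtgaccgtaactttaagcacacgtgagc
A run of 5 or more was found in 13 of the 21 windows listed for snoRNA hosts, at 12 of 17 hosts, and in 46.4% of all 32851 windows of the table. Snhg15, the snoRNA host with the highest fold, had a longest run of 4 bases. These counts take a run anywhere in the window, and in Snhg16 and Snhg1 it begins after the start base. They do not show how many hosts start with a run. The runs are letters in a window, and no use of them was measured.

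Levels below are counts scaled to library size (CPM) scaled with TMM factors, as mean ± SD over 8 model or 6 control libraries. Fold changes are model over control from edgeR's quasi-likelihood test, and a gene was called at a Benjamini-Hochberg adjusted p under 0.05 over the 12915 genes tested. Of the 29 members tested, 10 were higher in the model and 3 lower, and 16 were not called. That is 44.8% called, beside 47.9% of all genes tested. Over all genes, 26.6% were called higher and 21.3% lower, so calls are common in this comparison and the members' share is near the background. The median log2 fold change of the 29 was 0.35, beside 0.01 over all genes tested. Ranges of the 2 groups were apart for 4 of the 29 members tested, Neat1, Kcnq1ot1, Snhg15 and Mir155hg. All 4 were above the controls and none was below. Over all genes tested, 23.2% had ranges apart, 14.6% above the controls and 8.63% below.

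**Figure D1:**
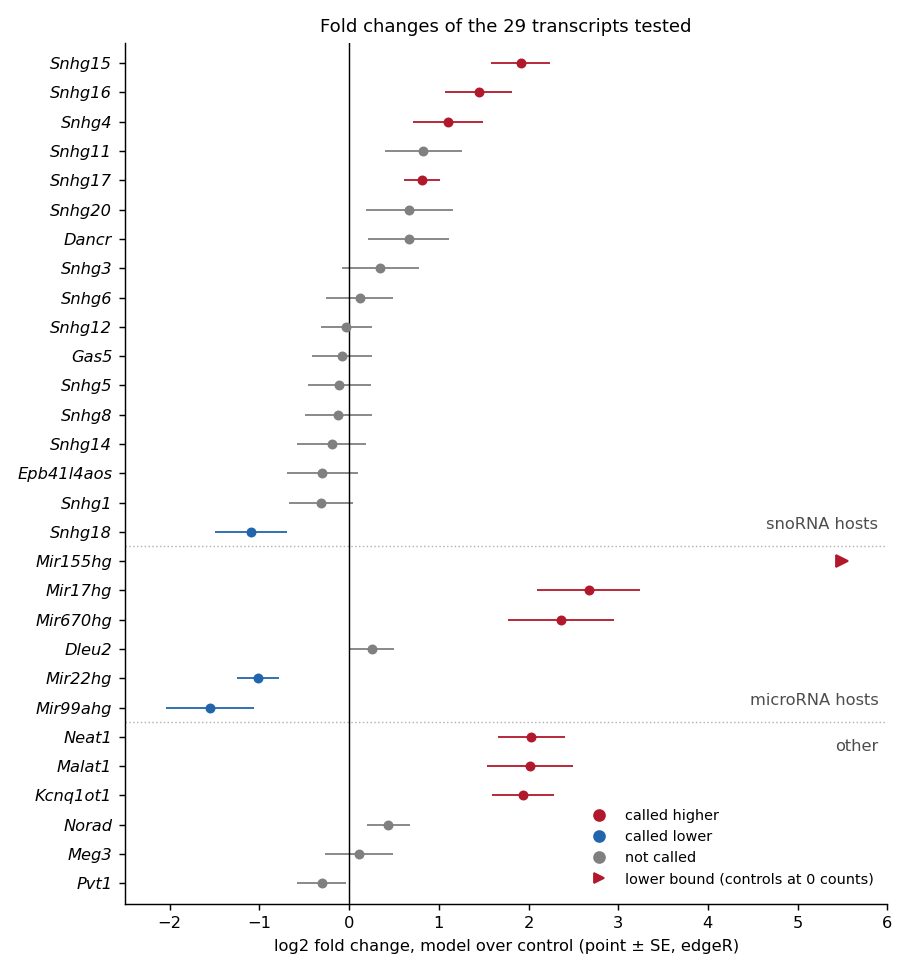
Log2 fold changes of the 29 transcripts tested, model over control, as points with bars of 1 SE from edgeR, ordered by fold within snoRNA hosts, microRNA hosts and other RNAs. Most snoRNA hosts sit within 1 unit of 0, and the arrow for Mir155hg marks a lower bound because the controls held no read.

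Libraries held 7914120 to 16639972 counts in genes, so 1 count stood for 0.0547 to 0.128 CPM. Neutrophil markers rose with the model: all 11 tested of 12 were called higher. The summed level of the list was 1276 to 2895 CPM in the model and 4.27 to 16.9 CPM in the controls. The defining marker Ly6g gave 303 counts in the model and 0 in the 6 controls. Hepatocyte markers were present in every library, with 4 of 10 called higher. In bulk liver a change in the share of a cell type and a change in RNA per cell cannot be told apart. Model 3 and model 4 stood apart in ribosomal RNA genes (5.79% and 4.10% of counts, and 0.816% to 2.21% in the other model libraries). They also did in mitochondrial genes (20.8% and 14.4%, and at most 11.3% in the others). Mitochondrial ribosomal RNAs count in both shares, so these are not separate measures. For ribosomal RNA genes, control 2 was at 1.98% and the other controls at 0.12% to 0.501%, below every model library. Mitochondrial genes were 6.18% to 8.57% in the controls. The results that these 2 libraries move are given with and without them.

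Malat1 and Neat1 rose by similar folds. Malat1 ranged from 99.3 to 644 CPM in the model (median 153) and from 32.6 to 126 CPM in the controls (median 53.5). Model 4 and model 3, at 644 and 469.9 CPM, were the highest, and the lowest model libraries lay below the highest control, control 2. The means were 251 ± 201 and 62.0 ± 35.0 CPM, a log2 fold change of 2.02 (SE 0.47, adjusted p = 0.00198). Without model 3 and model 4 it was 1.28 (adjusted p = 0.00619), a fall of more than 1.5 times in the fold, and the part of ribosomal and mitochondrial reads in it was not tested.

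Neat1 ranged from 83.2 to 377 CPM in the model (median 177) and from 33.7 to 68.0 CPM in the controls (median 51.4), with no overlap. The highest model libraries were model 7 and model 3 (377 and 376 CPM), then model 4 and model 8. On the log2 scale Neat1 rose by 2.03 (SE 0.37, adjusted p = 0.000242), and 1.74 without model 3 and model 4. With an offset for transcript length and GC content it was 1.39 (adjusted p = 0.00897). The ratio of Malat1 to Neat1 was 0.679 to 2.30 across model libraries and 0.558 to 2.75 across controls, so the ranges of the ratio overlapped widely.

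Kcnq1ot1, at a lower level, also did not overlap. It ranged from 1.97 to 4.41 CPM in the model (median 2.80) and from 0.383 to 1.70 CPM in the controls (median 0.633), a log2 fold change of 1.94 (SE 0.34, adjusted p = 0.000156). The gene overlaps the potassium channel gene Kcnq1 on the other strand, and the strand setting of the counts is not given. Kcnq1 itself was at 0.533 CPM in the model and was not called, at -0.35 (SE 0.51). Per kilobase of annotated exon, Kcnq1ot1 stood at 0.0317 CPM in the model and Malat1 at 36.0 CPM.

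Norad, an abundant cytoplasmic RNA that binds Pumilio proteins, was at 45.5 ± 14.0 CPM in the model and 33.6 ± 11.2 CPM in the controls. Its log2 fold change of 0.44 was not called (95% interval -0.03 to 0.90, adjusted p = 0.144). It was called without model 3 and model 4 (0.60, adjusted p = 0.0469) and without control 6 (0.66, adjusted p = 0.0295), so the call rested on which libraries entered. Pvt1, a neighbour of Myc, was at 2.45 ± 0.502 and 3.05 ± 1.28 CPM and was not called (interval -0.84 to 0.23). Meg3, the maternally expressed RNA of the Dlk1 cluster, was at 1.05 ± 0.451 and 1.00 ± 0.430 CPM and was not called (interval -0.63 to 0.85). H19, a fetal liver RNA that is switched off after birth, gave 3 counts over the model libraries and 17 over the controls, too few for the filter. The fit without the filter called it lower (-2.60, adjusted p = 0.0348).

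**Figure D2:**
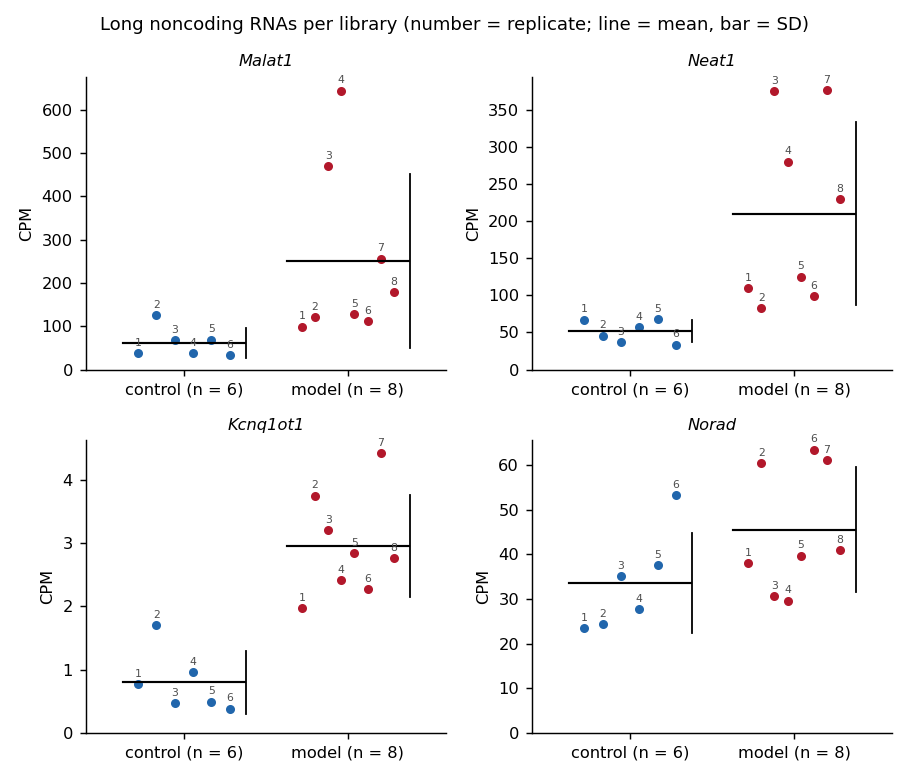
CPM of Malat1, Neat1, Kcnq1ot1 and Norad in each library on linear axes, with the replicate number beside each point, the mean as a line and the SD as a bar. Neat1 and Kcnq1ot1 separate the groups, Malat1 is spread widely by model 3 and model 4 (469.9 and 644 CPM), and Norad overlaps.

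Among the 15 microRNA hosts, 6 were tested. Mir155hg, Mir17hg and Mir670hg were higher in the model, Mir22hg and Mir99ahg were lower, and Dleu2 was not called. Mir155hg, once known as Bic and induced by Toll-like receptor signals in leukocytes, gave 182 counts in the model and 0 in the 6 controls. It was found in every model library, from 0.468 to 4.48 CPM (median 1.22), with the highest levels in model 8 and model 7. Against an assumed 3 counts over the control group, which is 0.0401 CPM, its pooled level was 45.2-fold higher. The edgeR test gave a log2 fold change of 7.44 (SE 1.04, adjusted p = 6.98e-05), whose size rests on controls at 0. The exact 95% counting interval of the ratio of model to control, which also covers the error of the model counts, began at 36.4. That interval leaves out the spread between libraries. Mir155hg passed the filter in 15 of the 24 alternatives run and was called in each of those.

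Mir142hg carries miR-142, which is largely restricted to blood cells. It fell below the filter, with 98 counts in the model and 14 in the controls. Its levels were 0.715 to 1.33 CPM in the model and 0.0593 to 0.386 CPM in the controls, with no overlap. In the fit without the filter its log2 fold change was 2.26 (SE 0.46, adjusted p = 0.000395). The part of incoming leukocytes in the levels of Mir155hg and Mir142hg was not tested.

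Mir17hg, the host of the miR-17 to miR-92a cluster and a known target of Myc, ranged from 0.602 to 6.32 CPM in the model (median 2.09) and from 0.0547 to 1.15 CPM in the controls (median 0.263). Model 7 was highest, and only model 2 lay below the highest control, control 5. Mir17hg rose by 2.67 on the log2 scale (SE 0.58, adjusted p = 0.000969). Without control 5 it rose to 3.43 (adjusted p = 0.000179), more than 1.5 times the fold.

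Mir670hg, which holds the hairpins of miR-670 and miR-129-2, averaged 1.36 ± 0.811 CPM in the model and 0.265 ± 0.256 CPM in the controls. The log2 fold change was 2.36 (SE 0.59, adjusted p = 0.00306), and model 3 and model 4 were its lowest model libraries, at 0.639 and 0.302 CPM. It lies 2672 bases from Hsd17b12, a fatty acid elongation enzyme at 184.7 CPM in the model that was not called (0.34, SE 0.16), but was without model 7 and model 8 (0.45, adjusted p = 0.0185).

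Mir22hg, the host of miR-22, fell. It ranged from 13.2 to 21.4 CPM in the model (median 16.0) and from 15.1 to 52.0 CPM in the controls (median 32.1). Model libraries were close to each other, and the overlap came from control 6, at 15.1 CPM. This gave a log2 fold change of -1.02 (SE 0.24, adjusted p = 0.00182). Mir22hg shares 206 bases of exon with Tlcd2 on the same strand, and Tlcd2 was not called (-0.38, SE 0.25). It was called lower with library totals (-0.63, adjusted p = 0.0186) and with the length and GC offset (-0.57, adjusted p = 0.0166), and the part of the shared exon in Mir22hg was not tested. Wdr81, on the other strand 6822 bases away, was lower (-0.96, adjusted p = 0.0293), and was not called without model 3 and model 4 (adjusted p = 0.0873) or without model 1, model 4, control 5 or control 6 (adjusted p up to 0.102).

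Mir99ahg, which holds miR-99a, let-7c and miR-125b-2, was at 0.609 ± 0.485 CPM in the model and 1.73 ± 1.03 CPM in the controls. The log2 fold change was -1.55 (SE 0.49, adjusted p = 0.0141), and without control 2, its highest library at 3.61 CPM, it was -1.20 and not called (adjusted p = 0.0563). Mir100hg, the host of the related miR-100 cluster, gave 87 and 20 counts and was below the filter. In the fit without the filter its log2 fold change was 1.51 and was not called (adjusted p = 0.0705). Each of the 2 hosts holds a miR-125b and a let-7 hairpin beside miR-99a or miR-100. Their values thus had opposite signs, and 1 was called.

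Dleu2, the host of miR-15a and miR-16-1, was at 12.9 ± 3.31 CPM in the model and 10.9 ± 4.19 CPM in the controls. Its difference of 0.25 was not called (interval -0.23 to 0.74). Of the remaining microRNA hosts, Mir181a-1hg gave 1 count in the model and 3 in the controls and Mir124a-1hg gave 1 and 0. Mir217hg, Mir133a-1hg, Mir9-3hg, Mir205hg and Mir124-2hg were at 0 in all 14 libraries, which allows 0.0299 CPM in the model and 0.0401 CPM in the controls at 3 counts per group. That limit covers counting error only.

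**Figure D3:**
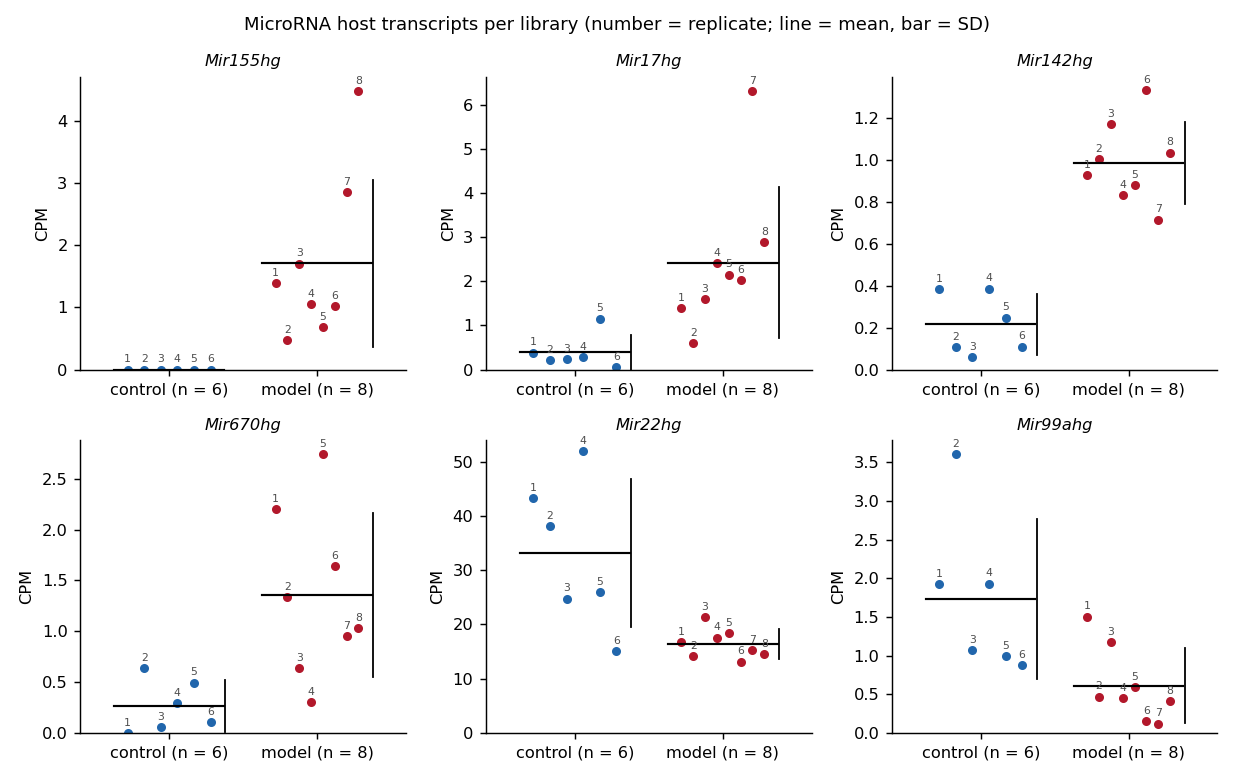
CPM of 6 microRNA hosts in each library on linear axes that start at 0, with the replicate number beside each point, the mean as a line and the SD as a bar. Mir155hg and Mir142hg separate the groups, Mir22hg is tight in the model (13.2 to 21.4 CPM) and spread in the controls (15.1 to 52.0 CPM), and single libraries stand out for Mir17hg (model 7) and Mir99ahg (control 2).

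Of the 21 snoRNA hosts, 18 hold an annotated snoRNA gene on their strand and 17 were tested. Snhg15, Snhg16, Snhg17 and Snhg4 were higher in the model, Snhg18 was lower, and 12 were not called. The median log2 fold change of the 17 was 0.12. The call share was 29.4%, beside 47.9% of all genes, and no test of that difference was made.

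Snhg15, the host of Snora9, ranged from 3.73 to 8.95 CPM in the model (median 5.70) and from 0.492 to 2.44 CPM in the controls (median 1.75), with no overlap. Snhg15 rose by 1.91 on the log2 scale (SE 0.33, adjusted p = 0.000129). It was called in all 24 alternatives. The myosin gene Myo1g, expressed mainly in blood cells, lies 4626 bases from Snhg15 on the same strand and rose by more: 8.68 CPM in the model, a log2 fold change of 3.42 (SE 0.32). The part of its reads in Snhg15 was not tested.

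Snhg16, the host of 3 Snord1 genes, ranged from 2.56 to 11.5 CPM in the model (median 6.26) and from 1.04 to 3.86 CPM in the controls (median 2.46). Model 7 and model 8 were its lowest model libraries and lay within the control range. The log2 fold change was 1.44 (SE 0.38, adjusted p = 0.00421), called in all 24 alternatives. Snhg17 was steadier: 6.15 to 9.00 CPM in the model (median 7.17) and 3.21 to 6.43 CPM in the controls (median 3.70). Its log2 fold change was 0.81 (SE 0.20, adjusted p = 0.00295). It was not called with library totals alone (0.56, adjusted p = 0.0522) or with the length and GC offset (0.49, adjusted p = 0.0691).

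Snhg4 reached the test under 1 of its 2 identifiers, ENSMUSG00000117869.2, at 0.903 ± 0.298 and 0.454 ± 0.274 CPM. Its log2 fold change of 1.10 (adjusted p = 0.0276) was lost in 7 of the 15 alternatives in which it passed the filter, among them library totals (adjusted p = 0.0601) and leaving out control 2, 3 or 6. The other Snhg4 identifier, ENSMUSG00000117694.2, was at 0 in all 14 libraries. It shares 1754 bases of exon with Matr3 and 246 bases with the first identifier, on the same strand. How reads in shared exons were counted is not given, so that 0 does not show absence. Matr3 was not called (0.33, SE 0.19). Snhg18, the host of Snord123, was at 1.51 ± 0.828 CPM in the model and 3.19 ± 1.69 CPM in the controls, a log2 fold change of -1.09 (adjusted p = 0.0339). That call was lost without model 6, 7 or 8, or control 1 or 4 (adjusted p up to 0.123), and without model 7 and model 8 together (-0.73, adjusted p = 0.103).

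Gas5, the best known of these hosts, with 10 annotated snoRNA genes, did not differ beyond its spread. It ranged from 26.8 to 90.1 CPM in the model (median 56.2) and from 27.1 to 97.2 CPM in the controls (median 57.0). The log2 fold change was -0.08 with a 95% interval of -0.74 to 0.57, so a change of either sign within those limits was not excluded. Snhg1, with 8 snoRNA genes, was at 11.3 ± 3.99 and 14.1 ± 9.12 CPM (interval -1.01 to 0.38). Its neighbour Slc3a2, an amino acid transporter subunit whose gene lies 106 bases away on the other strand, was at 73.6 CPM in the model and rose by 2.48 on the log2 scale (SE 0.22), with ranges apart.

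The other hosts at 5 CPM or more were likewise not called. Snhg8, the host of Snora24, was at 18.4 ± 8.20 and 20.0 ± 11.2 CPM (interval -0.86 to 0.62). Epb41l4aos was at 10.6 ± 5.30 and 13.1 ± 7.80 CPM (interval -1.08 to 0.47), and Snhg6, the host of Snord87, at 11.2 ± 4.67 and 10.4 ± 6.36 CPM (interval -0.62 to 0.86). Snhg12, with 5 snoRNA genes, was at 9.00 ± 2.87 and 9.23 ± 3.76 CPM (interval -0.58 to 0.52). The sign of these small differences turned under some alternatives for Gas5, Snhg8, Snhg12, Snhg6, Snhg1 and Epb41l4aos. Snhg11 averaged 5.60 ± 4.01 CPM in the model because model 3 and model 4 stood at 11.7 and 12.2 CPM. The other 6 model libraries lay between 1.79 and 4.53 CPM, inside the control range of 1.48 to 5.79 CPM. Its log2 fold change of 0.83 was not called (adjusted p = 0.123), was 0.16 without model 3 and model 4, and was called without model 7 and model 8 (1.09, adjusted p = 0.0481).

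At lower levels, Snhg5 (interval -0.81 to 0.59), Snhg20 (-0.28 to 1.62), Snhg3 (-0.49 to 1.18), Dancr (-0.22 to 1.55) and Snhg14 (-0.95 to 0.56) were not called. Snhg14, the long host that runs antisense to Ube3a and holds 208 annotated snoRNA genes, was at 0.889 ± 0.377 and 1.01 ± 0.488 CPM. Its exons overlap those of Ube3a by 1803 bases, and Ube3a was not called (0.08, SE 0.26). Rcc1, which shares 135 bases of exon with Snhg3 on the same strand, was called higher (0.61, adjusted p = 0.0364), and that call was lost in 7 of the 14 fits that left out 1 library (model 5, 6, 7 or 8, or control 3, 4 or 5). Snhg9 gave 21 counts in the model and 2 in the controls, a ratio of 7.82 with an exact 95% counting interval of 1.91 to 68.8, and was called higher in the fit without the filter (adjusted p = 0.0438). Snhg10 gave 22 and 8 counts, and Snhg7os 1 and 1.

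The snoRNA hosts tended to follow a common order among libraries, in both groups. The summed ribosomal protein genes ran in a similar order, so it was not particular to the hosts. How many of all genes follow it was not counted. In the controls, control 6 was among the 2 lowest libraries for 15 of the 17 hosts and control 3 for 14, while control 4 was among the 2 highest for 13. In the model, model 7 was among the 2 lowest for 13 and model 8 for 12, while model 3 was among the 2 highest for 13 and model 5 for 11. The summed level of the hosts ran from 86.1 to 239 CPM in the model and from 67.5 to 240 CPM in the controls, so the ranges overlapped almost fully. The highest library exceeded the lowest 2.77-fold in the model and 3.55-fold in the controls.

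The summed level of ribosomal protein genes ran from 15128 CPM in control 6 to 59410 CPM in control 4. The slope of expression on transcript length was taken within each library, as log2 units per doubling of exonic length relative to the mean of the library's own group. Among the controls, control 6 (slope 0.303) and control 3 (0.152) were highest in slope and lowest in both the host sum and the ribosomal protein sum. Among the model libraries, the same held for model 7 (0.236), model 2 (0.167) and model 8 (0.12). The lowest slopes were those of control 1 (-0.198) and model 5 (-0.186). The part of this slope in the spread of the hosts was not tested. With the length and GC offset, Snhg15 (1.84, adjusted p = 2.22e-06), Snhg16 (1.28, adjusted p = 0.00326) and Snhg18 (-1.08, adjusted p = 0.0102) were called and Snhg17 and Snhg4 were not.

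**Figure D4:**
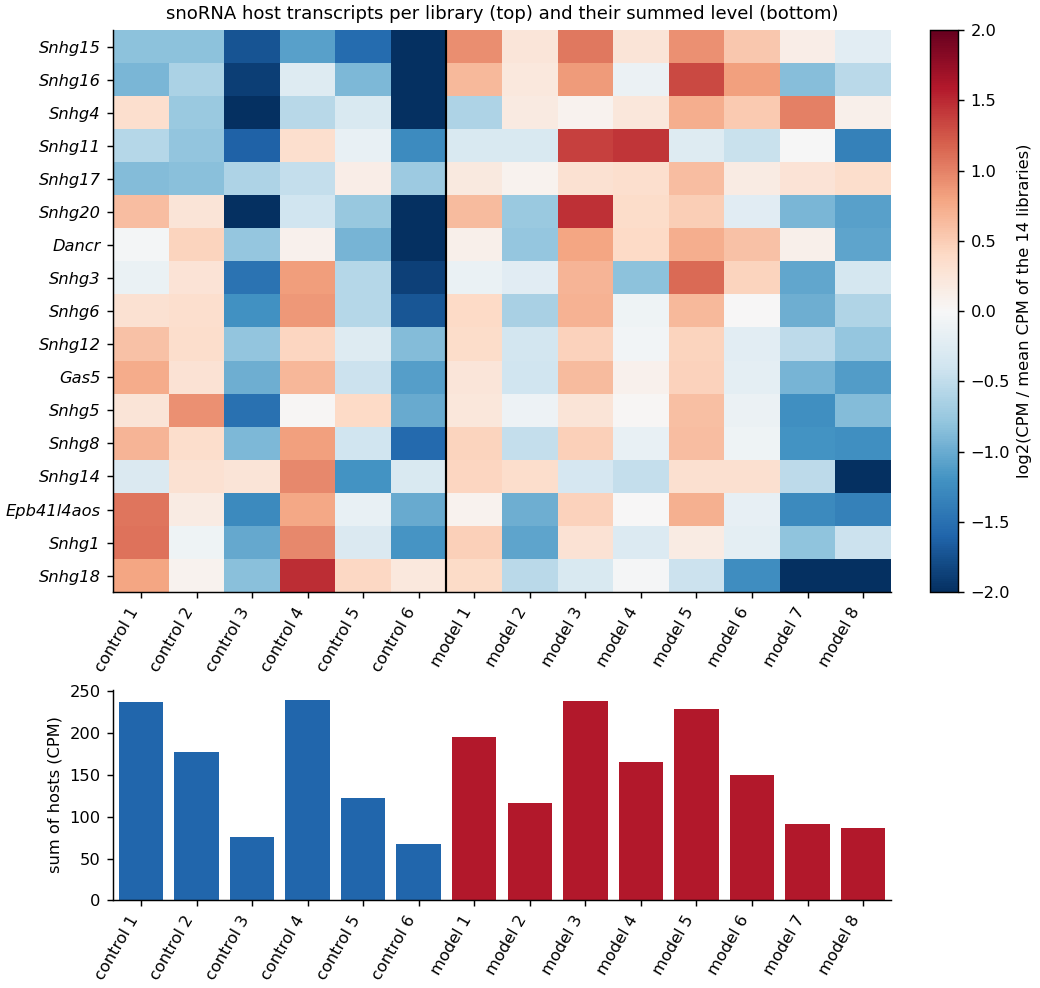
Top, log2 of CPM over the mean of the 14 libraries for the 17 tested snoRNA hosts, with controls left of the black line, model libraries right of it, and the colour scale clipped at 2 in either direction. Bottom, the summed CPM of the hosts per library. Control 3, control 6, model 7 and model 8 are low for most hosts. Rows are ordered by fold, highest at the top. In the upper rows, Snhg15, Snhg16, Snhg4 and Snhg17 were called higher in the model, and Snhg11 among them was not called. Snhg18, at the bottom, was called lower.

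Proteins that act with these RNAs were read from 5 lists. For comparison with their counts, 26.6% of all genes tested were called higher and 21.3% lower. No list was tested as a set. Of 19 snoRNP proteins, which assemble and guide snoRNA particles, 9 were called higher and 1 lower (median log2 fold change 0.50). Nop58 and Nop56, core proteins of C/D box particles, rose by 2.06 (SE 0.27) and 1.66 (SE 0.20) on the log2 scale, each with ranges apart. Nop58 stood at 55.9 ± 23.3 CPM in the model and 13.4 ± 2.48 CPM in the controls. Naf1, an assembly factor of H/ACA particles, rose by 1.72 (SE 0.45). Znhit3 was lower, at -1.46 (SE 0.35).

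Of 17 nonsense-mediated decay genes, 3 were called higher and 2 lower (median 0.06). Among the higher were Smg1, the kinase that phosphorylates Upf1 (1.16, SE 0.29), and Casc3, of the exon junction complex (1.15, SE 0.32), a call lost with library totals (0.89, adjusted p = 0.0575). Of 16 paraspeckle proteins, 6 were called higher and 1 lower (median 0.52). Sfpq, which binds Neat1 at the core of the paraspeckle, rose by 1.79 on the log2 scale (SE 0.34). Rbm14 was called at 0.97 (adjusted p = 0.0322), and that call was lost in 8 of the 14 fits that left out 1 library (model 2, 7 or 8, or control 1, 2, 3, 4 or 5).

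Of 15 genes of microRNA processing, 5 were called higher and 4 lower (median 0.11). The Argonaute proteins, which hold the mature microRNA, moved in opposite directions. Ago2 was at 23.6 ± 21.0 CPM in the model and 4.29 ± 2.96 CPM in the controls (2.43, SE 0.54, adjusted p = 0.00133), and without model 7 and model 8 it was 1.71 (adjusted p = 0.00498). Ago1 fell by 1.15 on the log2 scale (SE 0.30), from 10.4 ± 4.71 to 4.69 ± 1.70 CPM. Ddx5, a helicase that works with Drosha, rose by 1.43 (SE 0.21), with ranges apart.

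Of 16 genes in the imprinted clusters around Kcnq1ot1, H19 and Meg3, 6 were tested, of which 2 were called higher and 2 lower (median -0.38). In the Kcnq1ot1 domain, Tssc4 was lower (-1.21, SE 0.24). The growth inhibitor Cdkn1c, which Kcnq1ot1 is known to silence on the paternal copy, was at 0.577 ± 0.383 CPM in the model and 1.46 ± 0.242 CPM in the controls (-1.31, adjusted p = 0.00802). Slc22a18 and Cd81, in the same domain, were higher (0.57, adjusted p = 0.0238, and 0.55, adjusted p = 0.0223), and neither was called without model 3 and model 4 or with library totals. The genes of the domain thus did not move in 1 direction. Next to Gas5, Zbtb37 was lower (-0.66, adjusted p = 0.0175), a call lost without the low-count filter (adjusted p = 0.0596). Lower too was Trnau1ap beside Snhg12 (-0.83, adjusted p = 0.0405), a call lost in 9 of the 14 fits that left out 1 library (model 1, 4, 6, 7 or 8, or control 1, 2, 4 or 5). Frmd8 beside Neat1, Mrpl39 beside Mir155hg, Trim13 within Dleu2, Phactr4 beside Snhg3, Wdr74 beside Snhg1 and Snrpn beside Snhg14 were not called. Some of these passed the threshold under an alternative. Mrpl39 was called lower with library totals, upper-quartile factors, DESeq2 and the length and GC offset (-0.45 to -0.24, adjusted p = 0.0189 to 0.0403). Frmd8 was called lower without model 7 and model 8 (-0.96, adjusted p = 0.00345), and Trim13 higher without control 1 (0.88, adjusted p = 0.0391).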

How the data were processed

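The authors deposited raw counts of reads for each gene in 14 files, 1 for each sample. Alignment was with HISAT2 to GRCm39, per the submitters' processing notes. Of the aligner's version, the counter, its strand setting and the annotation release, none is given in the sources used here. Each file ends with 5 summary lines that name no gene, with 27.4% to 45.6% of entries, which were left out. Testing used edgeR 4.0.16 (R 4.3.3): filterByExpr, TMM factors, the robust quasi-likelihood test between groups, and Benjamini-Hochberg adjustment over 12915 genes. In simulated counts for these libraries, 30% of 100 genes changed 2-fold, 97% of 100 changed 4-fold and 0.0236% of unchanged genes were called. There, 12715 of 12915 genes were unchanged, while 47.9% were called in the data. The adjusted threshold therefore differs, and these rates do not give the power or false calls of this comparison. SE is the log2 fold change over the root of F. Alternatives used DESeq2 1.42.0 and limma 3.58.1.

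Exons, overlaps and neighbours within 10 kb came from GENCODE M21 (GRCm38), matched by identifier for 43 of 43 members, and served for lengths and neighbour names only. Members and lists were chosen with earlier results of these data known. Named were members of at least 1 CPM in a group, up to 3 called genes of at least 5 CPM per list by size of change, and neighbouring protein-coding genes, of which some are not reported here. Cdkn1c, Znhit3 and the members with few counts were named after their values were seen. No 2 libraries agreed within sampling noise (43 pairs, smallest chi-square per degree of freedom 21).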

Additional observations from a re-analysis of the deposited data

Results flagged for a closer look

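Among the 28 members of at least 1 CPM in a group, 56 groups of libraries were checked for 1 library far from the rest, and 4 stood apart by Dixon's criterion, where chance gives about 1 in 20. Control 5 was high for Snhg17, at 6.43 CPM with the next control at 4.24 CPM. Control 5 was also high for Mir17hg, at 1.15 CPM with the next at 0.385 CPM. Model 7 was high for Mir17hg, at 6.32 CPM with the next model library at 2.90 CPM. Model 3 was high for Snhg20, at 7.99 CPM with the next at 4.51 CPM.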

How the results depend on the processing

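Of 670 values of the members under the alternatives, 608 kept their direction and side of the threshold, 17 lost the call, 3 gained it and 42 turned sign, none of them called. For named partner genes and neighbours, whose alternatives were added after seeing the data, 728 of 811 values kept both.
Scaling by library totals moved the median of all genes from 0.01 to -0.23 on the log2 scale, and the calls over all genes from 3437 higher and 2751 lower to 2533 and 3955. Upper-quartile factors gave 2992 and 3514, and the length and GC offset 3043 and 4195. Members called higher were 8 with library totals, 9 with upper-quartile factors, 8 with the length and GC offset and 11 without the filter, and 7 to 11 when each library was left out, with 2 to 4 lower throughout. With library totals, 3 genes of nonsense-mediated decay, 3 of paraspeckles and 2 of the imprinted clusters were called. The last was also 2 without model 3 and model 4, and 2 to 5 when each library was left out, with the lowest count without control 4. Of the cell markers, 2 B cell genes were called with library totals, with the offset and without model 7 and model 8 (1 as reported), and with library totals 4 of stellate cells and fibroblasts and 2 of hepatocytes.

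Signs that turned belonged to uncalled genes. With library totals these were Meg3 (-0.10), Snhg6 (-0.0863) and Ube3a (-0.17), and with upper-quartile factors Meg3 (-0.0382), Snhg6 (-0.0122) and Ube3a (-0.10). In limma-voom they were Snhg12 (0.0317) and Snhg5 (0.0367), and with the length and GC offset Meg3 (-0.46), Snhg8 (0.023) and Ube3a (-0.23). Without model 3 and model 4, Meg3 was at -0.0309. Without model 7 and model 8, Gas5 was at 0.19, Snhg12 at 0.18, Epb41l4aos at 0.0031, Snhg5 at 0.17, Snhg14 at 0.10, Snhg8 at 0.18 and Ube3a at -0.0864. When each library was left out, the range was -0.0884 to 0.25 for Meg3, -0.23 to 0.10 for Gas5, -0.16 to 0.11 for Snhg12, -0.30 to 0.14 for Snhg5, -0.0405 to 0.41 for Snhg6, -0.36 to 0.0431 for Snhg14, -0.26 to 0.093 for Snhg8 and -0.0436 to 0.26 for Ube3a. The cause was not tested.

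The labels do not say that the replicate numbers pair the samples. Of 6 same-numbered pairs, 1 correlated over 0.1 (pair 1, at 0.447). Of the libraries, 1 of 6 model and 0 of 6 control correlated best with their own number. These correlations cannot show whether samples shared a batch. With the number as a replicate block over libraries 1 to 6, 7 members were called higher and 2 lower, 4 paraspeckle genes were called, and Gas5 (0.32), Snhg12 (0.24), Epb41l4aos (0.13), Snhg5 (0.32), Snhg14 (0.15), Snhg8 (0.35), Snhg1 (0.0302) and Ube3a (-0.12) turned sign. In that fit Frmd8 was called lower (-0.94, adjusted p = 0.00668), and among the calls lost were Snhg18, Rbm14, Rcc1, Trnau1ap, Zbtb37 (adjusted p = 0.0578) and Cdkn1c (adjusted p = 0.0526). Depth limits members under about 1 CPM, where 1 count is up to 0.128 CPM.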

Other observations

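Marker lists for the other cells of the liver gave these counts of called genes, beside 26.6% of all genes tested called higher and 21.3% lower. Monocyte markers were higher for 6 of 7 tested (median log2 fold change 2.79), T and NK cell markers for 6 of 7 (1.25), cholangiocyte markers for 5 of 5 (2.62), erythroid markers for 5 of 5 (3.77) and stellate cell and fibroblast markers for 6 of 8, with 1 lower (1.21). Kupffer cell and sinusoidal endothelial markers each had 3 higher and 3 lower of 8. B cell markers had 1 higher of 4, and markers of proliferating cells 2 higher and 1 lower of 5. The summed erythroid level ran from 1210 to 25560 CPM in the model and from 422 to 1611 CPM in the controls.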
